A study of Brachypodium distachyon and Sorghum bicolor and Panicum virgatum with 44 samples.

Results

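Sorghum cleavage sites assigned to plants held in the cold were compared with those assigned to their untreated controls. In Parallel Analysis of RNA Ends (PARE) only RNA fragments with a free 5′ end, without a cap, are sequenced, and a transcript cut under the guidance of a miRNA leaves reads that begin inside the predicted target site. The sorghum table gives each predicted site 1 abundance and the name of 1 PARE library. Sites were chosen by a read abundance above 0 and by a library name of the cold experiment, and each transcript and cleavage position was counted once. This gave 381 of the 1852 sorghum sites with a read, 201 named for the cold libraries and 180 named for the control libraries. The 3 site tables of the series, for Brachypodium, sorghum and switchgrass, hold 11650 sites with a read that are named for a library of the series.

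The cold group had 2 PARE libraries of above ground tissue of BTx623 sorghum seedlings, grown for 14 days with 12 h of light at 28 °C and 12 h of dark at 25 °C and then kept at 4 °C for 24 h. The control group had 2 libraries of the same strain, tissue and age without the stress. The other 6 sorghum libraries, from leaf, panicle and root, are called tissue libraries here. The labels call the members of each pair biological replicates and do not say how many plants went into each.

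A miRNA is a short RNA that an Argonaute protein holds and uses to find mRNAs by base pairing. In plants the pairing is nearly complete and the mRNA is usually cut opposite the middle of the miRNA. The families that are shared by most land plants act mainly on transcription factors of development, on hormone signalling, on nutrient uptake and on the small RNA pathway itself, and several of them have been linked to cold and drought in other grasses. Many of the families with high numbers in sorghum are known only from sorghum or a few related grasses, and their targets are poorly known. The sorghum table names transcripts but gives no protein for them, so the usual targets of a family are given below as background, and the proteins of the single transcripts are not given.

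The mature miRNAs of the sites that stood out in either group are shown because each site is read through the miRNA that predicts it. They are written 5′ to 3′ as the table gives them, with bases 2 to 8, the seed, in capitals.
miR160f: uGCCUGGCucccugaaugcca
miR167a: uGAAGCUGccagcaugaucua
miR396a: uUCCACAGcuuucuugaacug
miR169a: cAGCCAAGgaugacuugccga
miR166e: uCGGACCAggcuucaaucccu
miR5384: cGCGCCGCcguccagcgg
miR156d: uGACAGAAgagagagagcaca
miR172f: aGAAUCCUgaugaugcugcac
miR164c: uGGAGAAGcaggacacgugag
miR5568f-3p: gUCUUAUAauuuggaauggag
miR5568c-3p: aCUUACAGuuuggaacggagg
The 11 miRNAs had 11 different seeds. Of the 11, 10 were 21 nt long. The exception was miR5384, with 18 nt, of which 88.9% were G or C, against 33.3% to 61.9% in the others. The miR5568 pair differed in frame: with miR5568c-3p shifted by 1 base against miR5568f-3p, 16 of 20 bases were the same, and without the shift 7 of 21 were.

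Abundance is given in TP10M, reads scaled by the authors to a total of 10 M in every library and rounded to whole numbers. The table ranks a site among the PARE positions of its transcript and gives the rank where it is 1 or 2, without saying how ties were ranked. The share is the fraction of all PARE reads of the transcript that lies at the site. A site has Level 1 when it has a read and gains a level for each of 3 criteria, an abundance of at least 10 TP10M, rank 1 or 2, and a share of at least 20%, so that Level 4 passes all of them. The table holds 1 value per site, the reads behind it are unknown, and what the library name records where several libraries had reads is not stated. A site named for a cold library is therefore not shown to lack reads in the control libraries. Because the library name and the abundance chose the sites, their number, abundance, rank, share and level are described without a test.

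Most sites in both groups were at the lowest value the table holds. In the cold libraries 108 sites were named for replicate 1 and 93 for replicate 2, against 74 and 106 in the control libraries. The mean number per cold library was higher by 0.16 on the log2 scale, which is below the spread between replicates (pooled SD of 0.28), and the ranges overlapped. The sign turned with sites of at least 2 TP10M (-0.21) and without control replicate 1 (-0.077), and the value was 0.44 without control replicate 2. Of all 381 sites, 284 (74.5%) had 1 TP10M, just inside the abundance that chose them, and the 5583 predicted sorghum sites outside it had 0. Sites at 1 TP10M made up 78.7% and 76.3% of the sites of the cold libraries, against 63.5% and 76.4% in the control libraries, so that control replicate 1 had the smallest part of them.

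**Figure D1:**
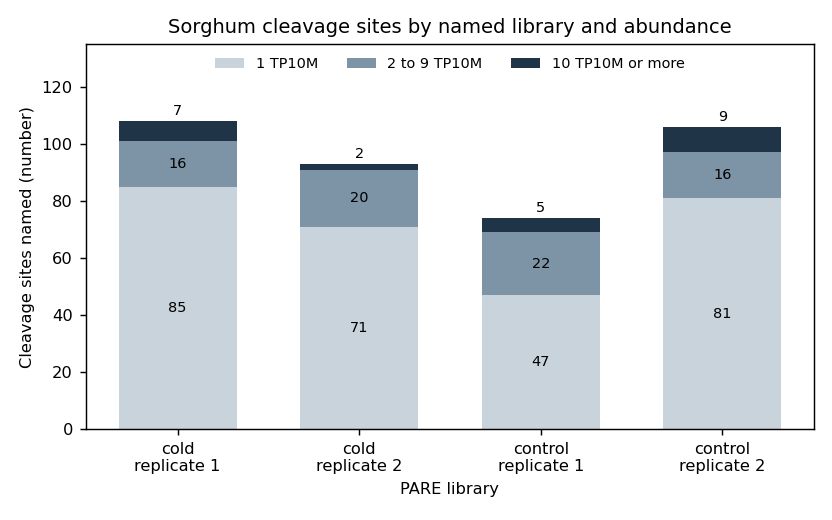
Number of sorghum cleavage sites (vertical axis) named for each of the 4 PARE libraries (horizontal axis), split by abundance into 1 TP10M, 2 to 9 TP10M and 10 TP10M or more. The pale part, sites at 1 TP10M, holds 85 and 71 sites in the cold libraries and 47 and 81 in the control libraries, and the dark part on top holds 7 and 2 in the cold libraries and 5 and 9 in the control libraries.

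Sites of at least 10 TP10M numbered 7 in cold replicate 1 and 2 in cold replicate 2, against 5 in control replicate 1 and 9 in control replicate 2. As shares these were 6.48% (95% Wilson interval 3.17% to 12.8%) and 2.15% (0.592% to 7.51%) of the sites of the cold libraries, against 6.76% (2.92% to 14.9%) and 8.49% (4.53% to 15.4%) of those of the control libraries. The share over all sorghum sites with a read was 5.56%. Both control libraries lay above both cold libraries, but cold replicate 1 and control replicate 1 were close, at 6.48% and 6.76%. The intervals cover the counting error of sites within a library only. They do not measure the spread between libraries and are no test of cold against control. The mean was 4.32% ± 3.06 in cold and 7.62% ± 1.23 in control libraries (SD, n = 2 each), a difference of -3.31 percentage points against a pooled SD of 2.33. It was -1.14 percentage points without cold replicate 2 and -5.47 without cold replicate 1.

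At Level 3 or 4 there were 11 of the 201 cold-named sites and 15 of the 180 control-named sites, and 3.89% of all sorghum sites with a read were at these levels. By library these were 9 and 2 sites in cold replicates 1 and 2, against 6 and 9 sites in control replicates 1 and 2. In shares, cold replicate 2 stood apart at 2.15%, while cold replicate 1 had 8.33% and the control libraries had 8.11% and 8.49%. The mean share was 5.24% ± 4.37 in cold and 8.30% ± 0.27 in control libraries (SD, n = 2 each), and the difference of -3.06 percentage points was smaller than the pooled SD of 3.1. Without cold replicate 2 the difference was 0.034 percentage points. The 4 libraries held 20.6% of the sorghum sites with a read and 13 of the 28 sites at Level 4 (46.4%), 7 in cold and 6 in control libraries. All 13 belonged to conserved miRNA families.

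**Figure D2:**
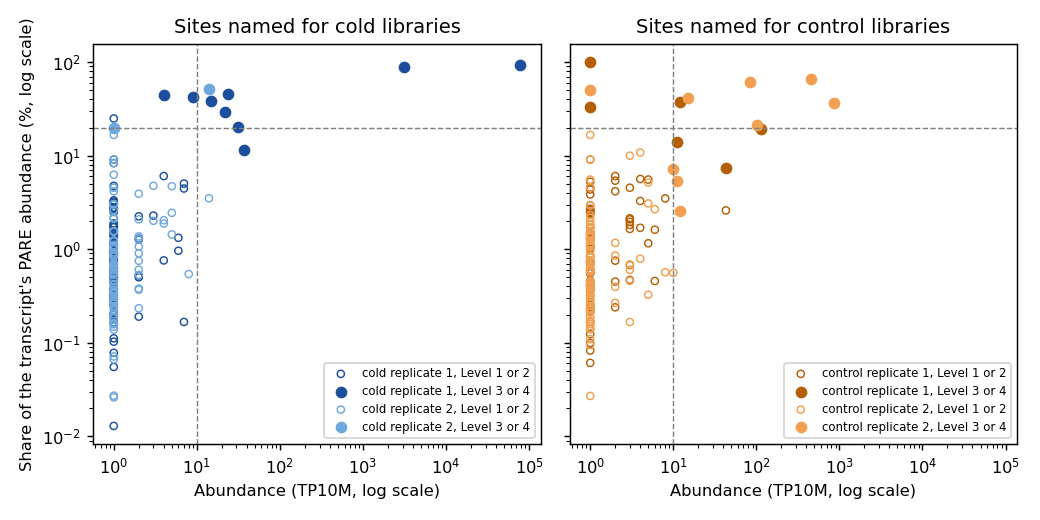
Abundance in TP10M (horizontal axis, log scale) against the share of the reads of the transcript in percent (vertical axis, log scale) for the 201 cold-named sites (left) and the 180 control-named sites (right), with Level 3 and 4 sites filled and dashed lines at 10 TP10M and 20%. The 7 cold-named and 6 control-named sites at Level 4 lie in the upper right of each panel, and the highest sites of the cold panel, at 3110 and 78134 TP10M, lie beyond the highest of the control panel, at 851 TP10M.

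The cold-named sites of highest abundance belonged to miR160, whose usual targets are mRNAs of auxin response factors, transcription factors that carry out the response to the hormone auxin. The miR160 site at position 1470 of Sobic.004G221400.1 (target site 1459 to 1479 of the transcript) had 78134 TP10M in cold replicate 1, which was 93.9% of the 83225 TP10M of that transcript. At position 1848 of Sobic.001G217300.1, miR160 had 3110 TP10M and 89.7% of the reads of the transcript in the same library. These were the highest and the second highest of all 1852 sorghum sites. The highest tissue-named site, with 1893 TP10M, was of miR160 as well. Another miR160 site, at position 1550 of Sobic.006G278900.1, had 24 TP10M but still 46.2% of the 52 TP10M of its transcript.

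All 3 of these miR160 sites were at Level 4 and rank 1, and all were named for cold replicate 1. The fourth miR160 site of the 4 libraries, at position 2571 of Sobic.003G158700.1, had 1 TP10M and 1.12% of its transcript in that same library. Cold replicate 2 and both control libraries had no miR160 site named for them. The other 15 miR160 sites with a read were named for tissue libraries, 2 of them at Level 3 or 4. The pattern of miR160 thus rests on 1 library, and the table gives no value for these positions in the other 3 libraries. The site of 78134 TP10M alone was 95.8% of the summed abundance of cold replicate 1, which was 81527 TP10M with it and 283 TP10M without both top sites, against 160 TP10M in cold replicate 2 and 347 and 1691 TP10M in the control libraries.

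The remaining cold-named sites at Level 3 or 4 in conserved families had 14 to 37 TP10M. MiR396, whose usual targets are growth-regulating factors that promote cell division in young leaves, had 37 TP10M at position 1814 of Sobic.004G305600.1, at rank 1 with a share of 11.5% (Level 3). At position 613 of Sobic.008G090000.1 it had 15 TP10M and a share of 38.5% (Level 4). MiR167, which acts on another group of auxin response factors, had 31 TP10M at position 2139 of Sobic.001G006000.1, and its share of 20.1% was just past the criterion. MiR169, whose usual targets are NF-YA subunits of a CCAAT-binding transcription factor, had 22 TP10M at position 433 of Sobic.002G110500.1, with 29.3% of the 75 TP10M of the transcript. These 4 sites were all named for cold replicate 1.

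Cold replicate 2 had 1 site at Level 4. It was a miR166 site at position 1334 of Sobic.003G028300.1, with 14 TP10M, 51.9% of the 27 TP10M of the transcript. MiR166 usually acts on HD-ZIP III transcription factors, which set the upper side of the leaf and the vascular pattern. The same library named a site of equal abundance for miR5565e at position 779 of Sobic.010G060500.1, but there 14 TP10M made up 3.51% of the reads of the transcript and the site stayed at Level 2. The last cold-named sites at Level 3 passed without the abundance criterion. They were miR5384 sites of 9 TP10M in Sobic.001G371000.1 (position 235) and 4 TP10M in Sobic.010G062300.1 (position 1036), named for cold replicate 1, and a miR5568f-5p site of 1 TP10M in Sobic.009G210400.1 (position 1491), named for cold replicate 2. Their transcripts had totals of 21, 9 and 5 TP10M, and the shares at the sites were 20.0% to 44.4%.

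The control-named sites of highest abundance belonged to miR156, which acts on SPL transcription factors and sets the change from the juvenile to the adult phase, and to miR172, which acts on AP2-like transcription factors later in the same pathway. The miR156 site at position 1708 of Sobic.004G036900.2 had 851 TP10M in control replicate 2, 36.4% of the 2338 TP10M of the transcript. MiR172 had 456 TP10M at position 1526 of Sobic.002G083600.1 in that library, with a share of 66.9%. Further miR156 sites named for it had 102 TP10M in Sobic.002G257900.1 (position 1150, share 21.1%), 83 TP10M in Sobic.002G247800.1 (position 1335, share 61.0%) and 15 TP10M in Sobic.006G171000.1 (position 1028, share 41.7%). These 5 were the Level 4 sites of control replicate 2. Sites of miR156 and miR172 named for tissue libraries reached 893 and 846 TP10M.

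A pair of miR156 sites of control replicate 2 stayed at Level 3 for their shares, 11 TP10M and 5.39% in Sobic.003G270500.1 (position 1331) and 10 TP10M and 7.14% in Sobic.003G406600.1 (position 2184). With the seventh site, at 1 TP10M in Sobic.001G257700.1, all 7 control-named miR156 sites were in this library and none in control replicate 1. The cold libraries also had 7 miR156 sites, 3 and 4, but these had 1 to 7 TP10M. The highest of them had 7 TP10M at position 2893 of Sobic.002G303300.1, at rank 1 with a share of 4.46%. Groups of equal number thus differed in abundance, and the difference rests on control replicate 2. MiR172 was similar: its 6 cold-named sites all had 1 TP10M, and of its 3 control-named sites the 456 TP10M site alone had more.

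The other Level 3 and 4 sites of the control libraries were of 1 to 113 TP10M. MiR164, whose usual targets are NAC transcription factors of organ boundaries and roots, had 12 TP10M and 37.5% of the reads at position 882 of Sobic.006G107400.1 (control replicate 1, Level 4). It also had 12 TP10M at position 3253 of Sobic.006G274866.1 in control replicate 2, where this was 2.56% of the 468 TP10M of the transcript and yet rank 1. The 3 cold-named miR164 sites had 1 TP10M each. In control replicate 1, Sobic.007G006600.1 carried neighbouring positions assigned to the miR5568 pair printed above. The miR5568f-3p site at 1451 had 113 TP10M and the miR5568c-3p site at 1450 had 43 TP10M, 19.4% and 7.39% of the 582 TP10M of the transcript. They lie 1 base apart, as the miRNAs themselves are offset, and overlap over nearly all of their length, so they are counted as sites of their own only because the rule counts positions.

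Control replicate 1 further had a miR5567 site of 11 TP10M in Sobic.002G264000.1 (position 1119, rank 2, share 14.1%) and a miR821b site of 43 TP10M in Sobic.003G132600.1 (position 553), which at 2.6% of 1654 TP10M was at Level 2. The remaining control-named sites at Level 3 had 1 TP10M. In Sobic.009G031800.1 (position 345) the single TP10M of a miR390 site was the whole abundance of the transcript, and miR395f in Sobic.009G088800.1 (position 1202) and miR6220-5p in Sobic.003G443700.1 (position 1479) had 1 of 3 and 1 of 2 TP10M. MiR390 starts the production of trans-acting small RNAs and miR395 acts on sulfate uptake and assimilation. Over both groups, 6 of the 26 Level 3 and 4 sites were below 10 TP10M, 3 in cold and 3 in control libraries.

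**Figure D3:**
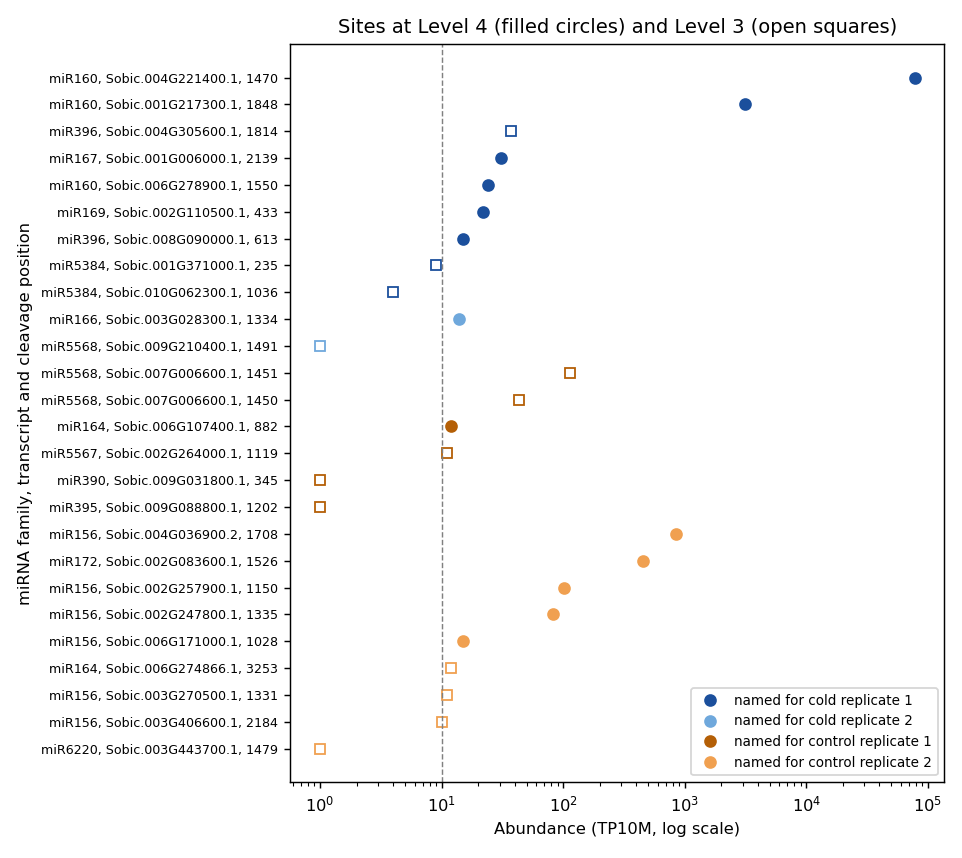
Abundance in TP10M (horizontal axis, log scale) of the 26 sites at Level 3 or 4, each named on the vertical axis by miRNA family, transcript and cleavage position, with cold-named sites above and control-named sites below; filled circles are Level 4, open squares Level 3, and the dashed line is 10 TP10M. The miR160 sites of cold replicate 1 reach 78134 TP10M, and the miR156 and miR172 sites of control replicate 2 reach 851 and 456 TP10M.

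The families that the study followed through cold in Brachypodium are miR169, miR393 and miR394. For miR169 it also showed PARE reads at the site of a sorghum homolog of the Brachypodium NF-YA target. There it reports a change in cold like the decrease in Brachypodium, and proposes that the cold response may be conserved. Its text does not name the sorghum transcript, so that site could not be matched to one here. MiR169 had 7 and 1 sites in the cold libraries, against 5 and 7 in the control libraries. Beside the site of 22 TP10M, cold replicate 1 had miR169 sites of 2 TP10M in Sobic.004G329300.1 (position 1547) and Sobic.005G126600.1 (position 241), with shares of 0.190% and 1.27%. The control libraries had miR169 sites of 4 TP10M in Sobic.001G329100.1 (position 997) and 3 TP10M in Sobic.009G223200.1 (position 2856) in replicate 1, and of 5 TP10M in Sobic.006G076400.1 (position 564) and 4 TP10M in Sobic.001G208700.2 (position 3258) in replicate 2. None of these reached rank 2 or a share of 2%. The miR169 site at Level 4 had a pairing score of 4.5 from psRNATarget and no prediction by TargetFinder. The other miR169 sites named here had scores of 4.5 or 5 and no TargetFinder prediction either.

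MiR393 acts on the F-box auxin receptors and miR394 on an F-box protein of leaf development. Their sites were few and low. MiR393 had 2 cold-named sites, both in replicate 1, and 1 control-named site, in replicate 2, all at 1 TP10M. MiR394 had 2 cold-named sites of 1 TP10M, in replicate 1, and 1 control-named site of 3 TP10M, in replicate 1, at position 2038 of Sobic.001G240300.1 with a share of 4.55%. No site of these families was above Level 1 in the 4 libraries.

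The sites of 51 miRNA families were named in the 4 libraries, 38 families in both groups, 10 in cold alone and 3 in control alone. Only 15 families had a site in each of the 4 libraries. The largest was miR5568, a sorghum family with several miRNAs. It had 15 and 19 sites in the cold libraries, against 17 and 27 in the control libraries. These were 20.5% of all sites of the 4 libraries, beside 14.8% of the tissue-named sites. Families of 18 to 20 sites were miR169, miR5565 with 6 and 5 in cold against 4 and 4 in control, miR5384 with 12 and 1 against 4 and 1, and miR6232 with 5 and 3 against 7 and 3. By number, the cold and control libraries overlapped in all of these but miR5565. As shares of the sites of each library the order was another: miR5565 overlapped (5.56% and 5.38% in cold, against 5.41% and 3.77% in control), while miR5568 (13.9% and 20.4% against 23.0% and 25.5%) and miR169 (6.48% and 1.08% against 6.76% and 6.6%) lay lower in both cold libraries, miR169 by little in replicate 1. Of the 35 families with 4 or more sites, 8 (22.9%) did not overlap between the groups by number, 5 higher and 3 lower in cold. By share, 14 (40%) did not overlap, 5 higher and 9 lower in cold. Over all 51 families these were 9 (17.6%) by number and 15 (29.4%) by share. The count of such families thus depended on the measure, which was added after the values were seen, and no family was tested.

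Several families that looked one-sided by group were carried by a single library. All 4 sites of miR160, of miR168 and of miR528 were in cold replicate 1, and all 4 of miR397 and of miR6223 were in control replicate 2. MiR168 acts on the mRNA of the Argonaute protein that carries most plant miRNAs, and it had sites of 7 and 4 TP10M in Sobic.001G286000.1 (position 299, rank 1) and Sobic.008G083000.3 (position 92, rank 2) and otherwise 1 TP10M. MiR528, a monocot family tied to copper proteins and oxidases, and miR397, which acts on laccases, had 1 TP10M at every site. MiR396 had 8 and 3 sites in the cold libraries, against 2 and 0 in the control libraries. As shares these were 7.41% and 3.23% in cold, against 2.70% and 0% in control libraries and 2.65% of the tissue-named sites, so cold replicate 2 and control replicate 1 were close. MiR5382 and miR6221 had 1 and 4 sites each in the cold libraries and none in the control libraries, at 1 or 2 TP10M.

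**Figure D4:**
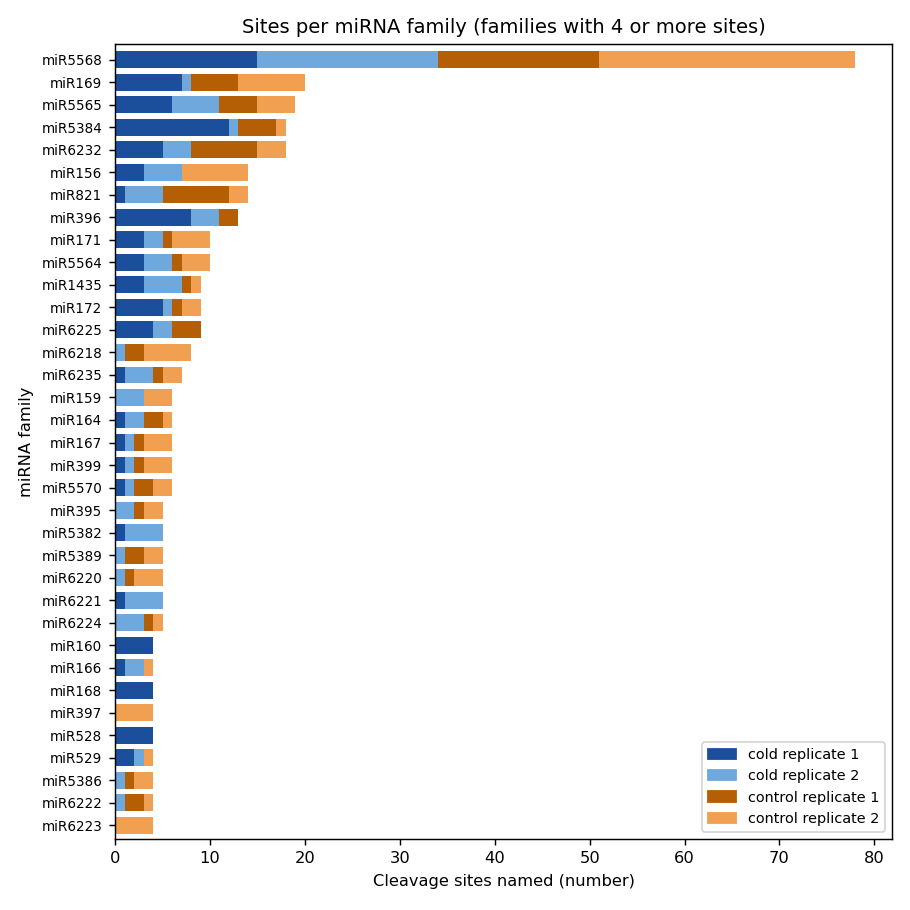
Number of sites (horizontal axis) for each miRNA family with 4 or more sites (vertical axis), stacked by named library with the cold libraries in blue, left, and the control libraries in orange, right. MiR5568 has 78 sites spread over all 4 libraries, while the bars of miR160, miR168, miR528, miR397 and miR6223 are of 1 colour, that of 1 library.

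By the usual role of the targets, families of development and transcription factors had 36 and 20 sites in the cold libraries, against 12 and 30 in the control libraries. They held 8 of the 11 Level 3 and 4 sites in cold and 9 of the 15 in control libraries. Families of the small RNA pathway had 4 and 1 sites in cold and 1 and 1 in control libraries, and the hormone receptor and F-box families 4 and 0 against 1 and 1. Copper and oxidative stress families had 5 and 0 sites in cold and 0 and 4 in control libraries, all at 1 TP10M. Sulfate and phosphate families had 1 and 3 against 2 and 5, also all at 1 TP10M. All other families together had 58 and 69 sites in cold and 58 and 65 in control libraries. The ranges of the cold and control libraries overlapped in all 6 groups of families, in the small RNA pathway list through cold replicate 2, which had 1 site like both controls.

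The prediction of a site depends on sequence alone and was not used to choose the sites, so it was tested over libraries. Conserved families were a list of 21 families taken here as widely shared among plants. They made up 40.7% and 24.7% of the sites of the cold libraries, against 21.6% and 37.7% in the control libraries. One library of each group was high and one was low, and the ranges overlapped. The means were 32.7% ± 11.3 in cold and 29.7% ± 11.4 in control libraries (SD, n = 2 each), with an exact permutation p of 0.667 (two-sided). Sites predicted by both psRNATarget and TargetFinder made up 13.9% and 8.60% in the cold libraries, against 8.11% and 10.4% in the control libraries (exact permutation p = 0.667, two-sided). Among sites with a psRNATarget expectation, where lower values mean closer pairing, 13.0% and 7.78% had at most 3 in the cold libraries, against 10.9% and 9.09% in the control libraries (exact permutation p = 1, two-sided). Adjusted over the 3 tests by Benjamini-Hochberg, all were 1. With 2 libraries against 2 the smallest p the test can give is 0.33, so it could not have passed 0.05.

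The abundant sites were described by family and pairing. Of the 9 cold-named sites of at least 10 TP10M, 8 were of conserved families and 7 were predicted by TargetFinder, against 9 and 8 of 14 control-named sites. Among sites at 1 TP10M, 46 cold-named (29.5%) and 38 control-named sites (29.7%) were of conserved families, and 29 and 18 were predicted by TargetFinder. Their expectations were mixed: in cold 2 of the 9 had 0 to 2 and 2 had 4.5 to 5, and in control 5 of the 14 had 0 to 2 and 6 had 4.5 to 5. The sites of 851, 456, 102 and 83 TP10M in control replicate 2 had expectations of 1, 0.5, 0 and 0, and the site of 113 TP10M in control replicate 1 had 4.5. The miR160 site of 3110 TP10M had an expectation of 1, and the one of 78134 TP10M was predicted by TargetFinder alone, with a score of 2. The median expectation was 4.5 in all 4 libraries.

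The first base of the miRNA, which in plants helps to decide the Argonaute protein it enters, also varied by library more than by group. It was U for 50.9% and 39.8% of the sites of the cold libraries, against 29.7% and 47.2% in the control libraries. In the 6 tissue libraries the share was 44.3% to 48.4%. The median share of the reads of the transcript at a site was 0.877% and 0.704% in cold and 1.34% and 0.703% in control libraries. Control replicate 1, with the fewest sites, had the lowest share of U and the highest median share.

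Dividing the abundance by the share gives the total PARE abundance of the transcript in the named library, a whole number for all 381 sites within 0.01 TP10M. Its median was 154 and 174 TP10M in the cold libraries, against 142 and 212 TP10M in the control libraries. The 381 sites lay in 360 transcripts, 197 with cold-named and 173 with control-named sites, and 10 transcripts had both. Among these 10 the total was lower in cold in 8 and higher in 2, with a median ratio of cold over control of 0.754 and a range of 0.354 to 1.38. By the read counts of the paper, a smaller part of the genome-matched reads matched transcripts in both cold libraries than in both control libraries. Whether this library-wide difference lowers the totals in cold was not tested. Sobic.001G421900.1 had 217 TP10M in cold replicate 1, against 452 and 427 TP10M in the control libraries. Sobic.006G186800.1 had 56 and 112 TP10M in the cold libraries, against 139 TP10M in control replicate 2. Sobic.004G305600.1, with the miR396 site of 37 TP10M, went the other way, with 323 TP10M in cold replicate 1 against 234 TP10M in control replicate 1.

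Replicates of 1 group also differed, in cold by as much. Sobic.009G228100.1, with cold-named miR399 sites at positions 1236 and 1276, had 603 TP10M in replicate 1 and 1401 TP10M in replicate 2, and the total of Sobic.001G426000.1 in cold replicate 1 was 3.75 times that in cold replicate 2. The control replicates lay closer, with 452 and 427 TP10M in Sobic.001G421900.1, 144 and 163 TP10M in Sobic.006G163800.1 and 432 and 628 TP10M in Sobic.008G114300.1. MiR399 acts on a ubiquitin-conjugating enzyme that limits phosphate uptake. The transcripts were those that happened to have a site named in more than 1 library, so the totals were not tested. In Sobic.001G421900.1 the cold-named site and 1 control-named site were both of miR5568, at positions 3318 and 3417 with 1 TP10M each. No transcript had cold-named and control-named sites of the same family with 10 TP10M or more in either.

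The 4 libraries were set beside the 6 tissue libraries on the same sequence measures. Conserved families made up 31.2% ± 9.4 of the sites of the cold and control libraries (SD, n = 4) and 39.0% ± 5.9 of those of the tissue libraries (SD, n = 6), a difference of -7.76 percentage points (exact permutation p = 0.152, two-sided, adjusted 0.357). The share with an expectation of at most 3 was 10.2% ± 2.3 and 8.58% ± 1.74 (exact permutation p = 0.238, adjusted 0.357). Sites predicted by both programs were 10.2% ± 2.6 and 9.94% ± 2.52 (exact permutation p = 0.819, adjusted 0.819). None passed 0.05, though the smallest p that 4 against 6 libraries can give is 0.00952. The test took every library as a unit of its own, although the libraries are replicate pairs of a tissue or treatment. Each site also counts only in the library it is named for, so the shares of the libraries are not independent. In the values that the choice of sites used, the 4 libraries named 74 to 108 sites each, against 158 to 405 in the tissue libraries, and the median total abundance of their transcripts was 142 to 212 TP10M, against 290 to 506 TP10M. The ranges of both measures did not overlap. By the read counts of the paper, each of the 4 libraries also had fewer different genome-matched sequences than any tissue library. That number, and age and growth of the plants, cannot be told apart from tissue in this comparison.

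**Figure D5:**
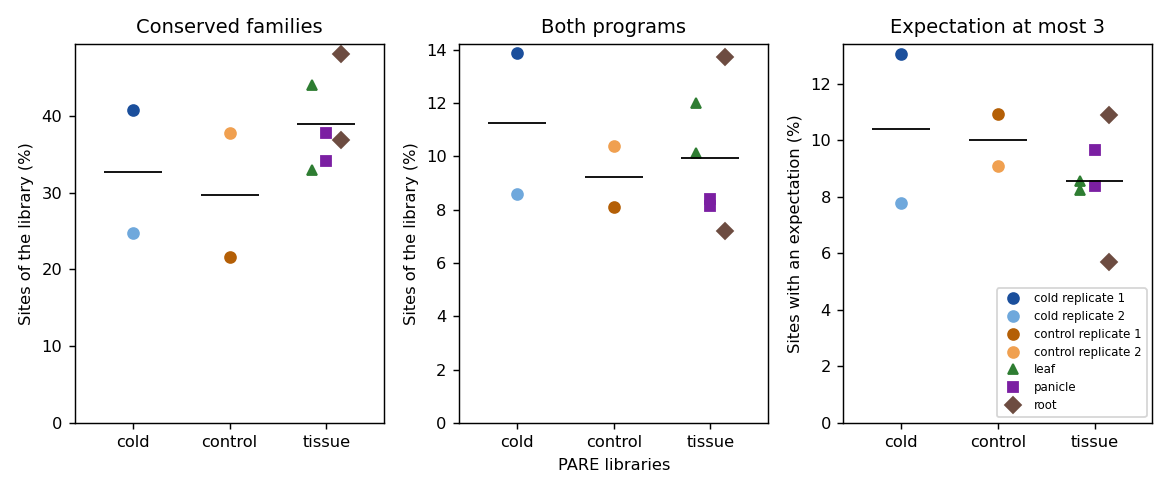
Share of sites in percent (vertical axes) that belong to conserved families (left), were predicted by both programs (middle) or had an expectation of at most 3 among sites with one (right), for each PARE library, with the cold, control and tissue libraries side by side and a line at each mean. In the left panel the cold libraries are at 40.7% and 24.7% and the control libraries at 21.6% and 37.7%, so replicates of a group lie farther apart than the group means.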

How the data were processed

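The authors trimmed the PARE reads, mapped them to the sorghum genome with Bowtie 0.12.7 (per the labels) without mismatches, and predicted target sites with psRNATarget and TargetFinder in homologs of Brachypodium targets. The deposited sorghum table gives prediction scores, an abundance in TP10M that the authors rounded (taken as a score, since it is no read count), the share of the transcript as a fraction, rank, level and 1 library name. Depth per library is not in it, and the read counts that the paper gives were not used to adjust any value. The level rule given in the report was tested on the deposited values and gave the deposited level at all 1852 sites with a read. Its share criterion of 20% differs from the 10% that the study states in its results, which is an alternative here.

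Sites were grouped by library name through the sample labels. Python 3.11.15 with scipy 1.17.1 was used. A site predicted by several miRNAs took the best score of each program. Differences were computed between mean shares per library, and sequence measures were tested by exact permutation over libraries, tested first on simulated data. The labels and the paper call the replicates biological but do not say which plants went into each, so p-values measure the spread between these libraries. Named sites were those at Level 3 or 4, the 10 of highest abundance per group, miR169, miR393 and miR394 sites of at least 2 TP10M, and transcripts with sites of 1 family in both groups at 10 TP10M or more; others were named after their values were seen. The members, the lists of families and the tests were chosen with earlier results of these data known. Alternatives were minimum abundances, other thresholds, counting miRNA and site pairs or transcripts, each library left out, and a replicate block. The RNA-seq data were not used, and 1627 Brachypodium rows named for libraries outside the series were left out of the series total.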

Additional observations from a re-analysis of the deposited data

How the results depend on the processing

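With sites of at least 2 TP10M, the log2 ratio of sites per library was -0.21, the share at 10 TP10M or more differed by -7.50 percentage points, and the shares with an expectation of at most 3 and predicted by both programs turned to -9.28 and -2.56 points. Counting miRNA and site pairs turned the expectation difference to -0.651 points. Leaving out 1 library at a time gave -0.077 to 0.44 for the log2 ratio, -5.47 to -1.14 points at 10 TP10M or more, -6.15 to 0.034 points at Level 3 or 4, -2.24 to 3.03 points for expectation, -5.00 to 11.1 points for conserved families and -0.641 to 4.65 points for both programs. The direction thus depended on cold replicate 1 or control replicate 1 for conserved families (-4.95 points without cold replicate 1). Against the tissue libraries, sites of at least 2 TP10M gave -10.5 points for expectation and -10.8 points for both programs, pairs gave -1.37 points for both programs, and leaving out 1 library gave -0.913 to 1.01 points for both programs; no adjusted p passed 0.05. The other settings kept direction, but the conserved-family difference was 11.0 points with sites of at least 2 TP10M, 4.72 with pairs and 5.90 with the families of the role lists, against 3.06 as reported, and with at least 2 TP10M the Level 3 or 4 difference was -1.57 points and that of conserved families against tissue -12.8 points. Counting pairs gave -4.84 points at Level 3 or 4, and expectation limits of 2.5 and 4 gave 1.79 and 1.32 points and counting transcripts 0.168 points, against 0.396 as reported.

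The replicate numbers are shared by the groups, but each site has a value in 1 library, so whether the numbers pair the samples could not be checked. With a replicate block the log2 ratio was 0.18, and the mean differences were -3.31 points at 10 TP10M or more, -3.06 points at Level 3 or 4, 0.396 points for expectation, 3.06 points for conserved families and 2.00 points for both programs. The reads behind each value and how several libraries were combined into 1 value are unknown.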
